A study of Arabidopsis thaliana with 8 samples.

Results

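The genes described here are the nuclear genes for light-harvesting and photosystem subunits of Arabidopsis thaliana. They were chosen by locus identifier and comprised 42 of the 28642 loci of the count table. There were 6 LHCA genes for the antenna of photosystem I, 14 LHCB genes for the antenna of photosystem II, 12 PSA genes for photosystem I subunits and 10 PSB genes for photosystem II subunits. All 42 passed the filter on low counts and were tested.

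The antenna proteins bind chlorophyll and pass the energy of absorbed light to the reaction centres of both photosystems. Photosystem II uses it to take electrons from water, and photosystem I uses it to reduce ferredoxin. The reaction centre cores are encoded in the plastid, whereas the antenna and many peripheral subunits are encoded in the nucleus, and their transcripts are among the most abundant of green tissue and are controlled by light, plastid signals and the circadian clock.

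Whole seedlings were compared in 4 groups, all in the accession Landsberg erecta and all 14 days old, with 2 biological replicates each. Homozygous smn2 mutants and wild type (WT) had received 0.1 µM flg22, the immunogenic peptide of bacterial flagellin, and were collected after 4 h or at 0 h. SMN2 is HEN2, a helicase that delivers nuclear RNA to the exosome, which is background knowledge and not given in the labels. Seedlings collected at 4 h without flg22 were not analysed here, so the peptide, the elapsed time and the handling cannot be told apart in any comparison of 4 h with 0 h. The seedlings were collected whole, so fewer cells of a type and less RNA per cell cannot be told apart either.

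The 8 libraries held 6856882 to 15791296 gene reads, of which ribosomal RNA loci took 26.7% to 44.4%. The replicate numbers 918 and 910 belong to separate sequencing runs per the file headers, so the run and the biological replicate cannot be told apart. HEN2 had 15.1 and 12 CPM in smn2 and 50 and 55.7 CPM in WT at 4 h, against 9.71 and 10.6 CPM in smn2 and 32 and 34.7 CPM in WT at 0 h (libraries 918 and 910 in each pair of values here and throughout), with a mean log2 difference between smn2 and WT of -1.84 ± 0.14 (SE, edgeR adjusted p = 0.000318). FRK1, a receptor-like kinase gene that marks the flg22 response, had 139 to 335 CPM in the 4 h libraries and 0.303 to 1.78 CPM in the 0 h libraries. The labelled tissue was checked with 8 markers of green leaf tissue and 17 root markers. Summed green leaf markers had 2193 and 3187 CPM in smn2 and 2692 and 4032 CPM in WT at 4 h, against 4973 and 6053 CPM in smn2 and 4848 and 5644 CPM in WT at 0 h, and none of the 8 was at 0 in any library. Summed root markers had 236 and 306 CPM in smn2 and 209 and 229.7 CPM in WT at 4 h, against 169.8 and 165 CPM in smn2 and 228 and 249 CPM in WT at 0 h, with 0 to 3 of the 17 at 0 in a library. Without SULTR1;2, a sulfate transporter gene left out after its values were seen, the other 16 summed to 66.8 and 68.6 CPM in smn2 and 100.4 and 91.4 CPM in WT at 4 h, against 78.6 and 97 CPM in smn2 and 125 and 152 CPM in WT at 0 h, lower at 4 h in each genotype and run. CPM scales the gene reads of a locus by the TMM-adjusted gene reads of its library.

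Transcripts of the 42 genes made up a smaller part of the mRNA at 4 h than at 0 h, and the part was smallest in the 918 libraries at 4 h. As a share of gene reads outside ribosomal RNA they took 1.69% and 3.18% in smn2 and 1.75% and 3.84% in WT at 4 h, against 6.75% and 5.70% in smn2 and 7.12% and 5.67% in WT at 0 h. All 4 shares at 4 h lay below all 4 at 0 h. Reads in introns made up 0.149% to 0.275% of the reads of these genes, and 90.8% to 97.0% of their reads were placed uniquely.

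Levels of the 42 genes spanned a wide range when set per length of exon. In RPKM, which divides CPM from exon reads by the exon length in kilobases, and averaged over the 8 libraries, the highest and lowest LHCA genes were LHCA1 (AT3G54890) at 1269.95 and LHCA6 (AT1G19150) at 8.80. Among LHCB genes the mean level ran to 3475 RPKM for LHCB1.3 (AT1G29930), the highest of all 42, and down to 0.956 RPKM for LHCB4.3 (AT2G40100), the lowest of all 42. Photosystem I subunit genes lay between 949 RPKM for PSAF (AT1G31330) and 87.5 RPKM for PSAE2 (AT2G20260). Photosystem II subunit genes lay between 828 RPKM for PSBP1 (AT1G06680) and 152 RPKM for PSBO2 (AT3G50820).

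All 42 genes had lower fitted values at 4 h than at 0 h in smn2 and in WT. Log2 changes are given with their standard error. Averaged over both genotypes, 36 of the 42 passed the test as lower (edgeR quasi-likelihood test, Benjamini-Hochberg adjusted p under 0.05 over 19649 loci) and none as higher, where 16.4% of all loci tested passed as lower and 18.7% as higher. The median log2 change of the 42 genes was -1.05, against -0.027 for all loci, and the log2 changes of single genes ranged between -2.66 for LHCB2.3 and -0.47 for PSAE2. The 6 that did not pass were LHCB1.1, LHCB1.2, LHCB1.3, LHCB2.2, LHCB4.3 and PSAE2. In 35 genes no library at 4 h reached any library at 0 h, which held for 14.6% of all loci tested. The exceptions were LHCA5, LHCB1.3, LHCB4.3, PSAE2, PSAF, PSAG and PSBX. Of the 36 calls, 12 held in all 8 fits that left out 1 library, and the number of calls fell to 12 with smn2 4 h 918 left out and to 23 with WT 4 h 918 or WT 0 h 918 left out. Without both 4 h libraries of 918, 10 genes passed.

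Within a single genotype fewer genes passed in edgeR, all of them as lower, and the number depended on the settings. In smn2, 11 of the 42 passed at 4 h against 0 h, beside 8.88% of all loci, and their median log2 change was -1.14 against -0.037 for all loci. In WT, 4 of the 42 passed, beside 6.56% of all loci, and their median log2 change was -0.94 against -0.012 for all loci. With the replicate number as a block, the counts were 28 in smn2 and 10 in WT, with DESeq2 24 in smn2 and 16 in WT, and with no filter on low counts 36 in smn2 and 34 in WT. The 4 genes that passed in both genotypes were PSBO2, PSBY, PSAD2 and LHCB4.2, and the 7 that passed in smn2 alone were PSAD1, PSAH2, PSBS, PSBQ2, LHCA6, PSAO and PSAN, for which a difference between the genotypes did not pass the test given further on. Of the 11 calls in smn2, that of PSBO2 held in all 8 fits without a library, and of the 4 in WT none did. The count in smn2 was 1 without smn2 4 h 918, 4 without smn2 0 h 918, 5 without smn2 4 h 910, and 21 with WT 4 h 910 or 19 with WT 4 h 918 left out. The count in WT was 0 with WT 4 h 918 or WT 0 h 918 left out, 1 with WT 0 h 910 left out and 16 with WT 4 h 910 left out.

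**Figure D1:**
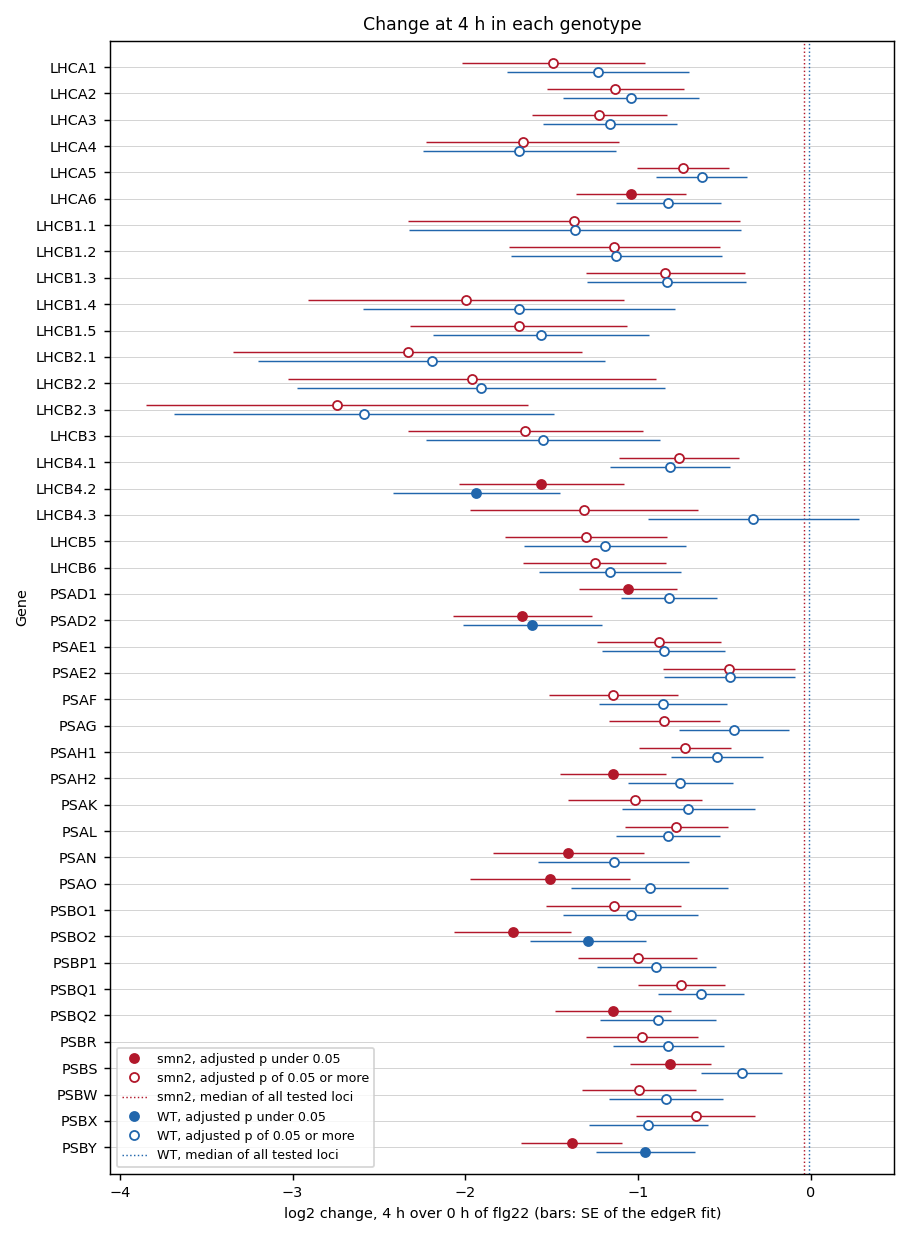
Log2 change at 4 h against 0 h for each of the 42 genes in smn2 and in WT, with bars of 1 standard error and 2 libraries per group. All points lie below 0, and the 11 filled points in smn2 and 4 in WT mark genes that passed the test.

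Each of the 6 LHCA genes, for the antenna belt on the side of photosystem I, passed as lower at 4 h, with a median log2 change of -1.14 over both genotypes. LHCA1 had 535 and 1121 CPM in smn2 and 430.3 and 1332 CPM in WT at 4 h, against 2608 and 2042 CPM in smn2 and 2395 and 1745 CPM in WT at 0 h. The 918 libraries at 4 h were the lowest for LHCA1, and 4 h and 0 h did not overlap. Over both genotypes LHCA1 changed by -1.36 ± 0.37 (edgeR adjusted p = 0.019) on the log2 scale. LHCA4 (AT3G47470), which pairs with LHCA1 in the antenna belt, had 215 and 482 CPM in smn2 and 196 and 475 CPM in WT at 4 h, against 1450.2 and 766 CPM in smn2 and 1451 and 711 CPM in WT at 0 h. For LHCA4 the 918 libraries were the lowest at 4 h and the highest at 0 h. LHCA4 changed by -1.68 ± 0.40 (edgeR adjusted p = 0.00942), the largest fall among the LHCA genes. LHCA2 (AT3G61470) had 178 and 320.3 CPM in smn2 and 178 and 394 CPM in WT at 4 h, against 601 and 493 CPM in smn2 and 633 and 543 CPM in WT at 0 h, with a log2 change of -1.09 ± 0.28 (edgeR adjusted p = 0.0141). LHCA3 (AT1G61520), the usual partner of LHCA2, had 427 and 606 CPM in smn2 and 399 and 759 CPM in WT at 4 h, against 1462 and 951 CPM in smn2 and 1543 and 1045 CPM in WT at 0 h, and fell by 1.19 ± 0.27 on the log2 scale (edgeR adjusted p = 0.00841). Both partners showed no overlap between the times.

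The remaining antenna genes of photosystem I are expressed at low levels, and their proteins link photosystem I to the NDH complex of cyclic electron flow. LHCA6 had 5.04 and 5.98 CPM in smn2 and 9.13 and 5.24 CPM in WT at 4 h, against 11.2 and 11.6 CPM in smn2 and 14.6 and 10.8 CPM in WT at 0 h. No library at 4 h reached a library at 0 h, and the highest value at 4 h was that of WT 918. Its log2 change over both genotypes was -0.93 ± 0.22 (edgeR adjusted p = 0.00926), and it passed in smn2 (-1.04 ± 0.31, edgeR adjusted p = 0.0427; DESeq2 adjusted p = 0.0566). LHCA5 (AT1G45474) had a log2 change of -0.69 ± 0.19 (edgeR adjusted p = 0.0181), with overlapping times. The calls of LHCA3, LHCA4 and LHCA6 held in all 8 fits without a library. Without smn2 4 h 918 the calls of LHCA1, LHCA2 and LHCA5 were lost (adjusted p 0.0603 to 0.0783), and that of LHCA5 was also lost without smn2 0 h 910 (0.0533), WT 0 h 910 (0.0675) or WT 4 h 918 (0.0703).

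Of the 14 LHCB genes, 9 passed as lower at 4 h, with a median log2 change of -1.48. Monomeric antenna proteins, the products of LHCB4, LHCB5 and LHCB6, connect the trimers of the main antenna to the photosystem II core. LHCB4.2 (AT3G08940, chromosome 3, 2717675 to 2718883 in TAIR10) had 49.6 and 82.7 CPM in smn2 and 25.8 and 87.2 CPM in WT at 4 h, against 186 and 205 CPM in smn2 and 251 and 183 CPM in WT at 0 h. Its libraries at 4 h all lay below its libraries at 0 h, and WT 4 h 918 was the lowest. LHCB4.2 changed by -1.56 ± 0.48 (edgeR adjusted p = 0.0439) in smn2 and -1.94 ± 0.48 (edgeR adjusted p = 0.024) in WT. LHCB4.2 overlaps AT3G08943 on the other strand by 4 bases, and that locus held reads amounting to 42% of those of LHCB4.2. LHCB6 (AT1G15820) had 253 and 478 CPM in smn2 and 267 and 500.4 CPM in WT at 4 h, against 1022 and 717 CPM in smn2 and 1038 and 682 CPM in WT at 0 h, again with no overlap between the times, and its log2 change was -1.21 ± 0.29 (edgeR adjusted p = 0.0105). LHCB5 (AT4G10340) changed by -1.25 ± 0.33 (edgeR adjusted p = 0.0162) on the log2 scale, and LHCB4.1 (AT5G01530), the main LHCB4 gene by reads, by -0.79 ± 0.25 (edgeR adjusted p = 0.0323).

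LHCB4.3, the LHCB4 gene of lowest level, did not pass. It had 1.14 and 0.543 CPM in smn2 and 1.59 and 0.839 CPM in WT at 4 h, against 1.21 and 2.68 CPM in smn2 and 1.19 and 1.77 CPM in WT at 0 h. These values overlapped between the times, and its log2 change was -0.82 ± 0.45 (edgeR adjusted p = 0.188). LHCB3 (AT5G54270), whose product is found in some of the antenna trimers, changed by -1.60 ± 0.48 (edgeR adjusted p = 0.0275). In the fits without a library, the calls of LHCB4.2 and LHCB6 always held. Without smn2 4 h 918 the calls of LHCB1.4, LHCB1.5, LHCB2.1, LHCB2.3, LHCB3, LHCB4.1 and LHCB5 were lost (adjusted p 0.0549 to 0.157). Those of LHCB1.4, LHCB2.1, LHCB3 and LHCB4.1 were lost without WT 0 h 918 (0.0507 to 0.1), those of LHCB1.4, LHCB2.1 and LHCB4.1 without smn2 0 h 918 (0.0507 to 0.0928), and those of LHCB2.1 and LHCB4.1 without WT 4 h 918 (0.0555 to 0.108). That of LHCB1.4 was also lost without smn2 4 h 910 (0.0544) or WT 0 h 910 (0.0618).

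Among the 12 photosystem I subunit genes 11 passed as lower at 4 h, with a median log2 change of -0.90. PSAD and PSAE form the stromal ridge at which ferredoxin docks, and each is encoded by a pair of genes. PSAD2 (AT1G03130, chromosome 1, 753307 to 754198) had 83.5 and 164 CPM in smn2 and 84.4 and 171 CPM in WT at 4 h, against 436 and 354 CPM in smn2 and 455 and 326 CPM in WT at 0 h. The times did not overlap and the 918 libraries were the lowest at 4 h in both genotypes. PSAD2 changed by -1.67 ± 0.40 (edgeR adjusted p = 0.0172) in smn2 and -1.61 ± 0.40 (edgeR adjusted p = 0.0243) in WT. PSAD1 (AT4G02770) had 159 and 184 CPM in smn2 and 194 and 304 CPM in WT at 4 h, against 379 and 335 CPM in smn2 and 516 and 366 CPM in WT at 0 h, also without overlap. Its log2 change was -1.06 ± 0.28 (edgeR adjusted p = 0.0256) in smn2 and -0.94 ± 0.20 (edgeR adjusted p = 0.00543) over both genotypes. PSAE2 had 34.1 and 49.5 CPM in smn2 and 46.6 and 49.5 CPM in WT at 4 h, against 71.6 and 45.2 CPM in smn2 and 93.8 and 39.7 CPM in WT at 0 h. It was the only photosystem I gene that did not pass, its times overlapped, and its log2 change was -0.47 ± 0.27 (edgeR adjusted p = 0.208). AT2G20270 overlaps PSAE2 by 63 bases on the other strand, with 11.4% of its reads. PSAE1 (AT4G28750) changed by -0.86 ± 0.25 (edgeR adjusted p = 0.0248).

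PSAF and PSAN lie on the lumenal side of photosystem I, where plastocyanin delivers electrons. PSAF had 434 and 594 CPM in smn2 and 476 and 933 CPM in WT at 4 h, against 1339.5 and 931 CPM in smn2 and 1470.3 and 1082 CPM in WT at 0 h. WT 4 h 910 reached the level of smn2 0 h 910, so the times overlapped, and the log2 change was -0.9998 ± 0.26 (edgeR adjusted p = 0.0158). PSAN (AT5G64040) had 174 and 333 CPM in smn2 and 191 and 496 CPM in WT at 4 h, against 685 and 658 CPM in smn2 and 750.4 and 765 CPM in WT at 0 h. All its libraries at 4 h lay below those at 0 h, and its log2 change was -1.27 ± 0.31 (edgeR adjusted p = 0.0108). PSAH, PSAL and PSAO sit on the side where light-harvesting complex II can dock. PSAH2 (AT1G52230) had 143 and 233 CPM in smn2 and 199.5 and 323 CPM in WT at 4 h, against 436 and 397 CPM in smn2 and 456 and 426 CPM in WT at 0 h, with no overlap and a log2 change of -0.95 ± 0.22 (edgeR adjusted p = 0.00778). PSAL (AT4G12800) had 499 and 613 CPM in smn2 and 468 and 664 CPM in WT at 4 h, against 1097 and 810.3 CPM in smn2 and 1154 and 853 CPM in WT at 0 h, likewise with no overlap and a log2 change of -0.80 ± 0.21 (edgeR adjusted p = 0.0158).

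The log2 changes of the other photosystem I genes were -1.22 for PSAO (AT1G08380), -0.86 for PSAK (AT1G30380) and -0.65 for PSAG (AT1G55670), whose products bind the antenna belt at its ends in the case of PSAK and PSAG, and -0.64 for PSAH1 (AT3G16140). Of the 11 calls, those of PSAD1, PSAD2, PSAH2 and PSAN held in all 8 fits without a library. Without smn2 4 h 918 the calls of PSAE1, PSAF, PSAG, PSAH1, PSAK, PSAL and PSAO were lost (edgeR adjusted p 0.071 to 0.177). The calls of PSAE1, PSAG, PSAH1, PSAK, PSAL and PSAO were lost without WT 0 h 918 (0.0526 to 0.124) and also without WT 4 h 918 (0.0572 to 0.15). PSAG and PSAH1 lost theirs without smn2 0 h 918 (0.0589 to 0.127) or smn2 4 h 910 (0.0598 to 0.0711), PSAG and PSAK without WT 0 h 910 (0.071 to 0.0718), and PSAK without smn2 0 h 910 (0.064).

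All 10 photosystem II subunit genes passed as lower at 4 h, with a median log2 change of -0.93. The products of PSBO, PSBP and PSBQ shield the manganese cluster that splits water. PSBO2 (AT3G50820, chromosome 3, 18890876 to 18892426) had 49.2 and 107 CPM in smn2 and 108 and 136 CPM in WT at 4 h, against 285 and 234 CPM in smn2 and 312 and 285 CPM in WT at 0 h. The times were well apart, and smn2 4 h 918 was the lowest library. PSBO2 changed by -1.73 ± 0.34 (edgeR adjusted p = 0.00661) in smn2 and -1.29 ± 0.33 (edgeR adjusted p = 0.0282) in WT, and over both genotypes it had the smallest adjusted p of the 42 (-1.51 ± 0.24 (edgeR adjusted p = 0.0011)). PSBO1 (AT5G66570), the more abundant PSBO gene, had 338 and 388 CPM in smn2 and 382 and 431 CPM in WT at 4 h, against 1075 and 526 CPM in smn2 and 1096 and 579 CPM in WT at 0 h. Its 918 libraries at 0 h stood above all others, and its log2 change was -1.09 ± 0.28 (edgeR adjusted p = 0.0129). PSBP1 had 543 and 673 CPM in smn2 and 553 and 825 CPM in WT at 4 h, against 1393 and 1044 CPM in smn2 and 1609.8 and 951 CPM in WT at 0 h, with a log2 change of -0.95 ± 0.24 (edgeR adjusted p = 0.0136). PSBQ2 (AT4G05180) had 307 and 366 CPM in smn2 and 429.9 and 533 CPM in WT at 4 h, against 929.9 and 561 CPM in smn2 and 1112 and 669 CPM in WT at 0 h, with a log2 change of -1.02 ± 0.24 (edgeR adjusted p = 0.00907). PSBQ1 (AT4G21280), its close relative, had 116 and 139.8 CPM in smn2 and 132 and 164 CPM in WT at 4 h, against 235 and 196 CPM in smn2 and 272 and 188 CPM in WT at 0 h, with a log2 change of -0.69 ± 0.18 (edgeR adjusted p = 0.0136). None of these 5 genes overlapped between the times.

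Further subunits of photosystem II are small proteins in or at the membrane. PSBY (AT1G67740, chromosome 1, 25394068 to 25395154), found near cytochrome b559, had 128 and 189.6 CPM in smn2 and 159.6 and 232 CPM in WT at 4 h, against 472 and 359 CPM in smn2 and 418 and 342 CPM in WT at 0 h. Its 4 h libraries lay below all 0 h libraries. PSBY changed by -1.38 ± 0.29 (edgeR adjusted p = 0.00926) in smn2 and -0.96 ± 0.29 (edgeR adjusted p = 0.0499) in WT. PSBR (AT1G79040), which helps to hold the oxygen-evolving proteins, had 174 and 247 CPM in smn2 and 305 and 291 CPM in WT at 4 h, against 489 and 339 CPM in smn2 and 671 and 385 CPM in WT at 0 h, and its log2 change was -0.90 ± 0.23 (edgeR adjusted p = 0.013). PSBW (AT2G30570), which stabilises photosystem II supercomplexes, had 188 and 261 CPM in smn2 and 218 and 381 CPM in WT at 4 h, against 499 and 396 CPM in smn2 and 633 and 438 CPM in WT at 0 h, and its log2 change was -0.92 ± 0.23 (edgeR adjusted p = 0.0132). Neither PSBR nor PSBW overlapped between the times. PSBX (AT2G06520) changed by -0.80 ± 0.24 (edgeR adjusted p = 0.0287) with overlapping times.

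PSBS (AT1G44575), the sensor of lumen acidity that triggers the dissipation of excess light as heat, was added to the genes described in full after its values were seen. PSBS had 284 and 293 CPM in smn2 and 262 and 300.4 CPM in WT at 4 h, against 435 and 578 CPM in smn2 and 399 and 344 CPM in WT at 0 h. Its libraries at 4 h were close together in both runs and below all libraries at 0 h. Its log2 change was -0.61 ± 0.17 (edgeR adjusted p = 0.0184), the smallest fall among the photosystem II genes. Of the photosystem II calls, those of PSBO2, PSBQ2 and PSBY held in all 8 fits without a library. Without smn2 4 h 918 the calls of PSBO1, PSBP1, PSBQ1, PSBR, PSBS, PSBW and PSBX were lost (adjusted p 0.0556 to 0.111). Calls were also lost for PSBP1, PSBQ1, PSBS and PSBX without WT 4 h 918 (0.052 to 0.0741), for PSBQ1, PSBS and PSBX without WT 0 h 918 (0.0517 to 0.0602), for PSBS and PSBX without smn2 0 h 910 (0.0587 to 0.0684), for PSBS without smn2 4 h 910 (0.06) and for PSBX without WT 0 h 910 (0.0578).

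Where a subunit has several genes, the reads of its genes were not divided in the same proportions in all libraries. PSAD2 took 34.5% and 47.2% of PSAD reads in smn2 and 30.3% and 36% in WT at 4 h, against 53.5% and 51.4% in smn2 and 46.9% and 47.1% in WT at 0 h. Its share was lower at 4 h in each run and genotype. LHCB4.2 took 11.7% and 12.9% of LHCB4 reads in smn2 and 7.38% and 14.9% in WT at 4 h, against 15.7% and 25.9% in smn2 and 24% and 22% in WT at 0 h. All 4 shares at 4 h lay below all 4 at 0 h. PSBO2 took 12.7% and 21.6% of PSBO reads in smn2 and 22% and 24.1% in WT at 4 h, against 20.9% and 30.8% in smn2 and 22.2% and 33% in WT at 0 h. The PSBO2 shares overlapped between the times. Shares were not tested. With the reads of each subunit summed, the log2 change over both genotypes was -1.24 ± 0.23 for PSAD (edgeR adjusted p = 0.00278), -1.18 ± 0.25 for PSBO (0.00511), -0.95 ± 0.24 for LHCB4 (0.0139), -1.17 ± 0.41 for LHCB1 (0.0518) and -2.05 ± 0.75 for LHCB2 (0.0591). The sums of LHCB1 and LHCB2 did not pass.

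The fall at 4 h was of unequal size in the runs, also for all 8 genes of LHCB1 and LHCB2, whose products form the trimers of light-harvesting complex II. The ratio of 0 h to 4 h CPM, taken within a genotype and a run, had a median of 3.13 in smn2 and 2.96 in WT in run 918, and of 1.58 in smn2 and 1.35 in WT in run 910. In a fit of time by run with genotype as a term, chosen after seeing the data, 40 of the 42 genes were lower at 4 h within run 918, beside 11.7% of all loci, with a median log2 change of -1.61. Within run 910, 21 were lower, beside 13.2% of all loci, with a median of -0.55. One value in each run was above 0, that of LHCB4.3 in 918 at 0.20 ± 0.59 (edgeR adjusted p = 0.841) and that of PSAE2 in 910 at 0.22 ± 0.19 (edgeR adjusted p = 0.427). The difference between the runs, 918 minus 910, passed as a larger fall in 918 for 16 of the 42, beside 0.687% of all loci. The median difference was -3.07 over the 8 LHCB1 and LHCB2 genes and -1.05 over the other 34, and single genes of the 34 such as LHCA4 had larger differences than LHCB1.2 and LHCB1.3. The 16 that passed were all 8 LHCB1 and LHCB2 genes, LHCB3, LHCB5, LHCB6, LHCA1, LHCA2, LHCA4, PSAD2 and PSAO. None of the 10 photosystem II subunit genes passed by edgeR, although 9 had an unadjusted p under 0.05 and all 10 had negative differences. DESeq2 was not run on this comparison. Here the 2 genotypes served as the replicates within a run and a time.

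The runs were also set against each other at the same time. At 4 h, 14 of the 42 genes were lower in 918 than in 910, beside 0.254% of all loci, and 7 of the 14 were LHCB1 or LHCB2 genes. At 0 h, LHCA4, PSAE2, PSAO and PSBO1 were higher in 918 than in 910, beside 2.43% of all loci, and none was lower, beside 0.59% (edgeR, 19 genes with an unadjusted p under 0.05 in either direction). The difference between runs passed for 5 genes without smn2 0 h 910, smn2 0 h 918, WT 0 h 910 or WT 4 h 910, for 6 without WT 0 h 918, for 8 without WT 4 h 918, for 9 without smn2 4 h 910 and for 11 without smn2 4 h 918. LHCA4, LHCB1.1, LHCB2.1, LHCB2.2 and LHCB2.3 passed in all 8 of these fits. Within run 910 the count of lower genes was 4 without smn2 0 h 910, 7 without smn2 4 h 910, 8 without WT 0 h 910, 13 without smn2 0 h 918 and 14 without WT 0 h 918 or WT 4 h 910.

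**Figure D2:**
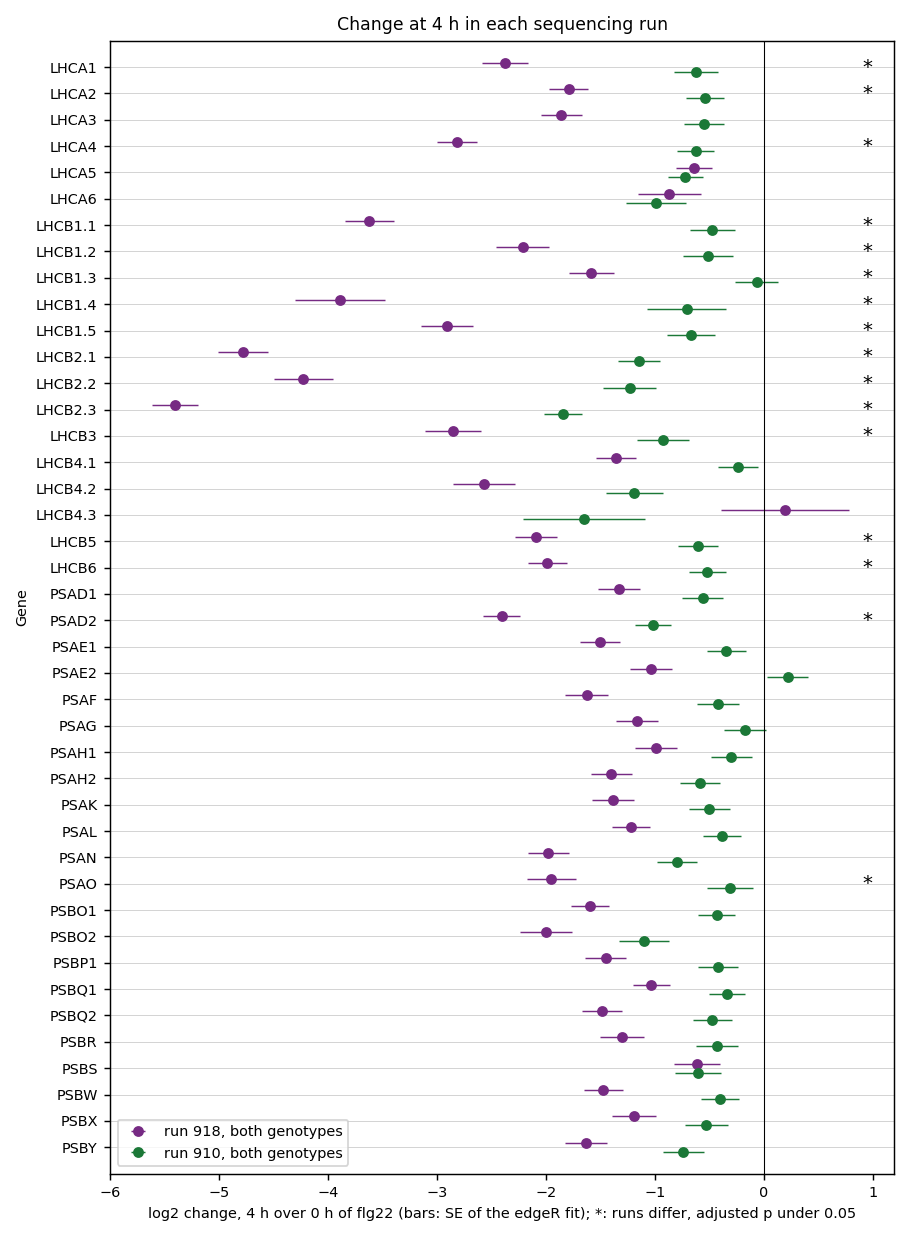
Log2 change at 4 h against 0 h for each of the 42 genes within run 918 and within run 910, from the fit of time by run, with bars of 1 standard error. An asterisk marks the 16 genes whose changes differed between the runs, among them all 8 LHCB1 and LHCB2 genes, while for PSBS both values lie near -0.6.

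The 8 LHCB1 and LHCB2 genes are described in full because of these differences, so after their values were seen. LHCB2.3 (AT3G27690, chromosome 3, 10255947 to 10257011) had 8.13 and 93.1 CPM in smn2 and 5.56 and 81 CPM in WT at 4 h, against 318 and 366 CPM in smn2 and 257 and 266 CPM in WT at 0 h. The 918 libraries at 4 h were far below all others, and the 910 libraries at 4 h lay between them and the 0 h libraries. LHCB2.3 changed by -5.40 ± 0.21 (edgeR adjusted p = 1.28e-06) within run 918 and -1.84 ± 0.17 (edgeR adjusted p = 3.4e-05) within run 910, a difference of -3.56 ± 0.26 (edgeR adjusted p = 0.000393). LHCB2.2 (AT2G05070, chromosome 2, 1799234 to 1800392), the LHCB2 gene with most reads, had 175.3 and 1309.6 CPM in smn2 and 79.6 and 1138 CPM in WT at 4 h, against 2579 and 3204 CPM in smn2 and 1993 and 2579.97 CPM in WT at 0 h. LHCB2.1 (AT2G05100, chromosome 2, 1823240 to 1824425) had 38.2 and 272 CPM in smn2 and 22.2 and 243 CPM in WT at 4 h, against 947 and 618 CPM in smn2 and 692 and 526 CPM in WT at 0 h. Both followed the order of LHCB2.3, with the 918 libraries lowest at 4 h and no overlap between the times. The difference between the runs was -3.00 ± 0.35 (edgeR adjusted p = 0.00396) for LHCB2.2 and -3.63 ± 0.28 (edgeR adjusted p = 0.000532) for LHCB2.1.

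LHCB1.1 (AT1G29920, chromosome 1, 10474784 to 10475959) had 221 and 1494 CPM in smn2 and 159.96 and 1595 CPM in WT at 4 h, against 2372 and 2061 CPM in smn2 and 2294 and 2228 CPM in WT at 0 h. Its 918 libraries at 4 h were the lowest, and its 910 libraries at 4 h lay between them and the 0 h libraries. Its log2 change was -3.62 ± 0.23 (edgeR adjusted p = 1.03e-05) within run 918 and -0.47 ± 0.21 (edgeR adjusted p = 0.11) within run 910. LHCB1.2 (AT1G29910, chromosome 1, 10472280 to 10473299) had 585 and 1384 CPM in smn2 and 434 and 1916 CPM in WT at 4 h, against 2155 and 2179 CPM in smn2 and 2623 and 2508 CPM in WT at 0 h. LHCB1.3 (chromosome 1, 10478005 to 10479048) had 1939 and 2995 CPM in smn2 and 2019 and 3459 CPM in WT at 4 h, against 5820.5 and 3022 CPM in smn2 and 6025 and 3747 CPM in WT at 0 h. LHCB1.3 showed the smallest response of the 8, and WT 4 h 910 exceeded smn2 0 h 910. Its log2 change was -1.58 ± 0.20 (edgeR adjusted p = 0.000296) within run 918 and -0.066 ± 0.20 (edgeR adjusted p = 0.837) within run 910, a difference of -1.52 ± 0.28 (edgeR adjusted p = 0.0435) that was lost in each of the 8 fits without a library (adjusted p 0.0624 to 0.303).

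The other pair of LHCB1 genes lies on chromosome 2. LHCB1.4 (AT2G34430, chromosome 2, 14524756 to 14525763) had 87.3 and 264 CPM in smn2 and 34.7 and 447 CPM in WT at 4 h, against 847 and 558 CPM in smn2 and 948 and 608 CPM in WT at 0 h, with a difference between the runs of -3.18 ± 0.53 (edgeR adjusted p = 0.0269). LHCB1.5 (AT2G34420, chromosome 2, 14522524 to 14523568) had 511 and 1147 CPM in smn2 and 359 and 1408 CPM in WT at 4 h, against 3374 and 1979.8 CPM in smn2 and 3131 and 2085 CPM in WT at 0 h, with a difference of -2.24 ± 0.32 (edgeR adjusted p = 0.0142). Both were lowest in the 918 libraries at 4 h and highest in the 918 libraries at 0 h. For LHCB1.2 the difference was -1.70 ± 0.33 (edgeR adjusted p = 0.0493). Without a library these 3 differences were lost in at least 4 of the 8 fits, with adjusted p up to 0.171 for LHCB1.4 (without smn2 0 h 910, smn2 0 h 918, WT 0 h 910, WT 0 h 918 or WT 4 h 910), 0.116 for LHCB1.5 (the same libraries except WT 0 h 918) and 0.28 for LHCB1.2 (every library except smn2 4 h 918).

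The make-up of LHCB1 reads differed between the libraries as well. LHCB1.3 took 58% and 41.1% of LHCB1 reads in smn2 and 67.2% and 39.2% in WT at 4 h, against 40% and 30.8% in smn2 and 40.1% and 33.5% in WT at 0 h. LHCB1.1 took 6.6% and 20.5% in smn2 and 5.32% and 18.1% in WT at 4 h, against 16.3% and 21% in smn2 and 15.3% and 19.9% in WT at 0 h. The coding sequences of LHCB1.1 and LHCB1.3 are 96.1% identical over 804 bases in RefSeq, and those of LHCB2.1 and LHCB2.2 96.6% identical over 798 bases, so reads of these genes can be split wrongly between copies. Uniquely placed reads made up 78.6% of the reads of LHCB2.2, 81.2% of those of LHCB1.3 and 88.2% of those of LHCB1.1. With uniquely placed reads alone, all 8 genes again passed in the difference between the runs, with -3.16 ± 0.29 for LHCB1.1 (edgeR adjusted p = 0.00103) and -1.56 ± 0.26 for LHCB1.3 (0.0223).

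The bases upstream of 3 of these genes are shown to set the gene of the largest fall, LHCB2.3, beside LHCB1.1 and LHCB1.3, which point away from each other on chromosome 1 with 1915 bases between their starts and had log2 changes of -3.62 and -1.58 within run 918. Each is the 250 bases before the RefSeq start in TAIR10.1, read 5′ to 3′ on the strand of the gene, which is chr3:10255656-10255905 on the plus strand for LHCB2.3, chr1:10475970-10476219 on the minus strand for LHCB1.1 and chr1:10477635-10477884 on the plus strand for LHCB1.3. Capitals mark matches to the motifs searched, which are CACGTG and CCAATC in LHCB2.3, AAAAATCT in LHCB1.1 and CCAATC in LHCB1.3. LHCB1.3 also holds AAAAATCT, and LHCB2.3 TATAAA, in the 50 bases after the start, which are not shown. All these bases are those of the reference genome, and the sequence of the Landsberg erecta seedlings was not examined.
LHCB2.3: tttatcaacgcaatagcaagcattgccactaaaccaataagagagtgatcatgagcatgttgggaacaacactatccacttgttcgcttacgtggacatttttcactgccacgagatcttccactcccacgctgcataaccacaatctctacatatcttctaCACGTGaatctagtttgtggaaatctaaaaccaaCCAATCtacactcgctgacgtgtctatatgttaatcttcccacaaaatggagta
LHCB1.1: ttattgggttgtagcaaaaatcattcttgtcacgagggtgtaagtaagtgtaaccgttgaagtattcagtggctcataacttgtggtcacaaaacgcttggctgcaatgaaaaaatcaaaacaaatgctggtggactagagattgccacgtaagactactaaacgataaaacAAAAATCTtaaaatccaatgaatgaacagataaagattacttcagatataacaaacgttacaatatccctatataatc
LHCB1.3: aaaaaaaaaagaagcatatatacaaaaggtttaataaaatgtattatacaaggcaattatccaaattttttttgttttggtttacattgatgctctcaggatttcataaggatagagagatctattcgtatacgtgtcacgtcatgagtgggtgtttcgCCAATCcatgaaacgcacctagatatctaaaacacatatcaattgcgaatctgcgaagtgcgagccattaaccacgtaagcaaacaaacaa
The start in the deposited table lies 41 bases downstream of the RefSeq start for LHCB2.3, 10 bases downstream for LHCB1.1 and 120 bases downstream for LHCB1.3.

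Motifs known from promoters of light-regulated and clock-regulated genes were counted on both strands in the 300 bases around the RefSeq start of each gene, 250 before and 50 after it. The G-box CACGTG was present in 14 of the 42 genes (33.3%) and in 7.68% of 27443 protein-coding genes. The I-box GATAAG was present in 17 (40.5%, against 14.6%) and the GLK-type motif CCAATC in 15 (35.7%, against 12.3%). Of those 15, 8 were LHCB genes, 5 of them LHCB1 or LHCB2 genes. The CCA1-binding motif AAAAATCT was present in 6 (14.3%, against 7.88%), of which 3 were LHCB1 or LHCB2 genes. The evening element AAAATATCT was present in 1 (2.38%, against 2.82%), and a W-box, TTGACC or TTGACT, in 6 (14.3%, against 32.4%). TATAAA was present in 20 (47.6%, against 52.1%). Around the starts of the deposited table, over 26709 genes, the shares were 42.9% against 8.15% for the G-box, 54.8% against 15.3% for the I-box, 47.6% against 13.3% for the GLK-type motif and 16.7% against 31.8% for the W-box. A match describes these letters in the reference genome only, not in Landsberg erecta, and members of 1 subunit share sequence.

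Clock genes differed between the runs as well, already at 0 h. Of 10 clock genes, 5 were higher and 3 lower in 918 than in 910 at 0 h, beside 2.43% and 0.59% of all loci. CCA1, a morning transcription factor that binds LHCB promoters, had 2.44 and 12.7 CPM in smn2 and 0.529 and 5.77 CPM in WT at 4 h, against 18.5 and 79.2 CPM in smn2 and 5.93 and 45 CPM in WT at 0 h. LHY, its close relative, had 0.65 and 4.45 CPM in smn2 and 1.72 and 1.78 CPM in WT at 4 h, against 8.65 and 75.1 CPM in smn2 and 2.67 and 54.8 CPM in WT at 0 h. Both were lower in 918 than in 910 at 0 h, by -2.49 ± 0.24 for CCA1 (log2, edgeR adjusted p = 0.000567) and -3.66 ± 0.37 for LHY (0.000697). TOC1, an evening component that represses CCA1, had 93 and 54.9 CPM in smn2 and 100.02 and 62.3 CPM in WT at 4 h, against 59.3 and 17.2 CPM in smn2 and 73 and 14.9 CPM in WT at 0 h. PRR5, which is expressed before dusk, had 16.3 and 29.3 CPM in smn2 and 14.7 and 35.5 CPM in WT at 4 h, against 10.01 and 1.84 CPM in smn2 and 15.6 and 2.58 CPM in WT at 0 h. Both were higher in 918 than in 910 at 0 h, by 2.04 ± 0.18 for TOC1 (edgeR adjusted p = 0.000315) and 2.52 ± 0.26 for PRR5 (0.000798). In the difference between the runs of the 4 h change, 6 of the 10 clock genes passed, beside 0.687% of all loci. All 6 had a more negative change in 918. For TOC1 this was a smaller rise, 0.55 ± 0.17 within 918 against 1.87 ± 0.18 within 910. For PRR9 it was a larger fall, -2.31 ± 0.29 against -0.29 ± 0.23. The hour of collection is not given in the sources used here, and the part of the clock in the changes of the antenna genes was not tested.

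Of 8 markers of green leaf tissue, none passed in the difference between the runs in edgeR, with a median of -0.18. Over both runs and genotypes, 4 of the 8 were lower and 1 higher at 4 h, beside 16.4% and 18.7% of all loci. The median log2 change of the 8 was -0.56, and their summed CPM was lower at 4 h in every library than in any library at 0 h. RCA was kept in this sum and was a large part of it, with 2446 and 2908 CPM in smn2 at 0 h. Without RCA the sums overlapped between the times. RCA, which encodes Rubisco activase, changed by -1.44 ± 0.27 (edgeR adjusted p = 0.00273) and RBCS1A, for the most abundant Rubisco small subunit, by -0.27 ± 0.22 (edgeR adjusted p = 0.39). Of 15 root markers tested, 4 were lower and 1, SULTR1;2, higher at 4 h, beside 16.4% and 18.7% of all loci. Of these calls, 2 of the 5 green leaf calls (RCA and RBCS1B) and 2 of the 5 root calls (COBL9 and SULTR1;2) held in all 8 fits without a library. The part of tissue make-up in the changes of the 42 genes was not tested.

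**Figure D3:**
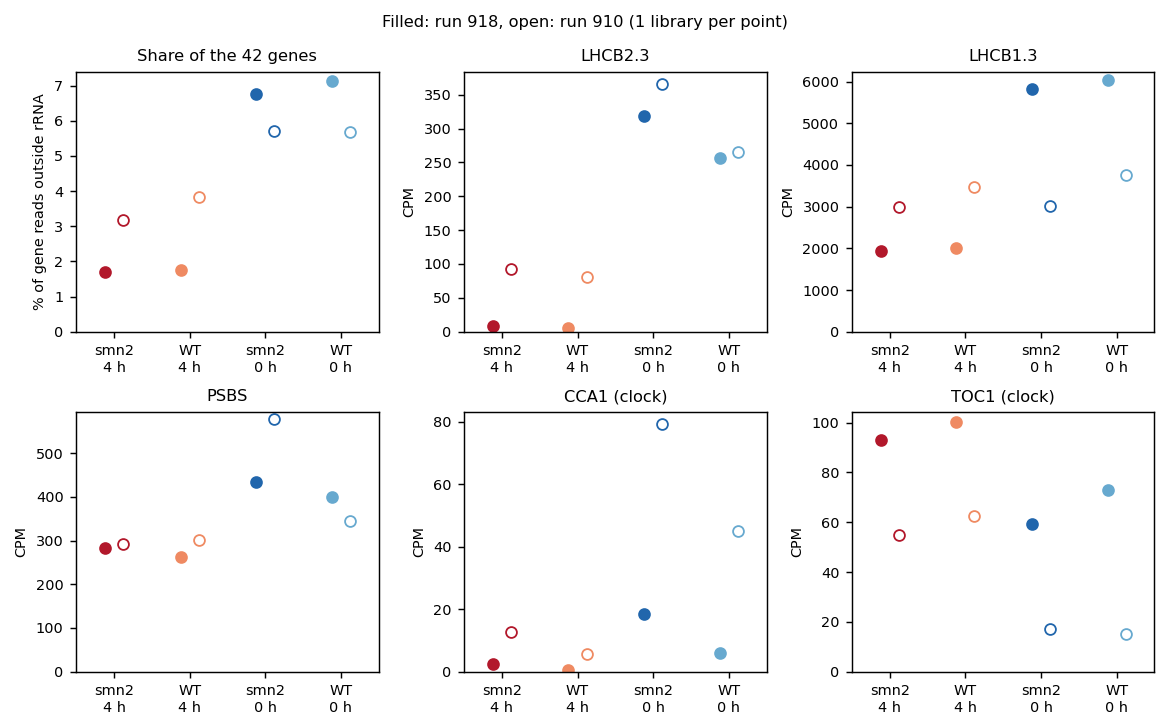
Share of gene reads outside ribosomal RNA held by the 42 genes in each library (percent), beside the CPM of LHCB2.3, LHCB1.3, PSBS and the clock genes CCA1 and TOC1. Axes start at 0, and points are filled for 918 and open for 910. The member share is 1.69% to 3.84% at 4 h and 5.67% to 7.12% at 0 h. At 0 h CCA1 lies lower, and TOC1 higher, in the 918 libraries than in the 910 libraries.

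The genotype comparison asked whether loss of HEN2 alters these transcripts. No gene of the 42 passed in smn2 against WT at 0 h, where 1% of all loci passed, at 4 h (0.31%), or on the mean of both times (1.8%), by edgeR. None had an unadjusted p under 0.05 in any of these 3, and DESeq2 called 0 in each, with 0 genes at 0 h, 1 at 4 h and 2 on the mean at an unadjusted p under 0.05. The difference between the 4 h changes of smn2 and WT passed for 0 of the 42 and for 0% of all loci, with 0 at an unadjusted p under 0.05 in edgeR and in DESeq2. The median log2 difference of the 42 was -0.078 at 0 h, -0.20 at 4 h and -0.14 on the mean, and -0.12 for the difference of the 4 h changes. Standard errors of single genes were 0.23 to 1.03 at 0 h and 0.23 to 1.05 at 4 h, so a p that missed the threshold does not show that the genotypes had equal levels.

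Genes at the edge of the genotype comparison came from both photosystems. PSBS had the most positive difference at 0 h, 0.45 ± 0.23 (edgeR adjusted p = 0.6), and PSBX the most negative, -0.60 ± 0.34 (edgeR adjusted p = 0.644). At 4 h the most negative was PSAG, -0.65 ± 0.32 (edgeR adjusted p = 0.668). PSAG had 299.98 and 427 CPM in smn2 and 436 and 704 CPM in WT at 4 h, against 763 and 546 CPM in smn2 and 848 and 705 CPM in WT at 0 h. Its smn2 libraries lay below the WT libraries of the same run at both times, and the genotypes overlapped at 0 h but not at 4 h. PSAG was picked by its 4 h difference, so this separation adds no support for it. All 12 photosystem I genes had negative differences at 4 h and on the mean of both times, with a median of -0.37 at 4 h, and at 0 h 9 of the 12 were negative. Of the 10 photosystem II subunit genes, 9 were negative at 4 h, with a median of -0.31, and 9 on the mean. None of these genes passed. The median over all loci at 4 h was -0.009. From single libraries of run 918 at 4 h, the log2 differences of PSAH1 (0.23), PSAL (0.092), PSAK (0.044) and PSAE1 (0.015) were positive. In run 910 that of PSAE2 was (0.001). The other photosystem I genes were negative in the run concerned. The genes were measured in the same libraries, so their signs are not independent.

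Genes of connected pathways did not all move with the subunit genes. Of 26 genes of chlorophyll synthesis, 9 were lower and 5 higher at 4 h over both genotypes, with a median log2 change of -0.22. Of all loci tested, 16.4% passed as lower and 18.7% as higher in that comparison. The enzymes HEMA2 (1.87 ± 0.19), GSA1 (0.98 ± 0.15) and HEMB1 (0.85 ± 0.16) of the early steps shared with haem were higher, and CHLM (-0.93 ± 0.17), the methyltransferase of the magnesium branch, was lower. Of the 14 calls, 7 held in all 8 fits without a library, those 4 included. HEMA1, the more abundant HEMA gene and named after its values were seen, went the other way from HEMA2 and was lower. It had 44 and 95.5 CPM in smn2 and 40.4 and 114 CPM in WT at 4 h. At 0 h it had 250 and 252 CPM in smn2 and 211 and 254 CPM in WT. In the difference between the runs 4 of the 26 passed, beside 0.687% of all loci, all with a more negative 4 h change in 918. These were PORA (-3.09 ± 0.30) and PORB (-2.30 ± 0.30), the light-dependent protochlorophyllide reductases, CRD1 and CAO. Of 10 chlorophyll breakdown genes tested, 4 were lower, among them SGR1 (-0.97 ± 0.18), the magnesium dechelatase, RCCR (-0.92 ± 0.19) and PAO (-0.84 ± 0.20), and CLH1 (1.72 ± 0.22), a chlorophyllase, was higher.

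Regulators and electron carriers were lower more often than higher. Of 17 regulators of photosynthesis genes, 8 were lower and 1 higher at 4 h, beside 16.4% and 18.7% of all loci. The smallest adjusted p among the lower ones belonged to the phytochrome-interacting factors PIF1 (-1.42 ± 0.17) and PIF4 (-2.23 ± 0.26) and the plastid sigma factors SIG1 (-1.54 ± 0.22) and SIG5 (-2.14 ± 0.34). GLK1 and GLK2, activators of antenna genes, named here after their values were seen, changed by -0.46 ± 0.13 (edgeR adjusted p = 0.0215) and -1.38 ± 0.30 (edgeR adjusted p = 0.00626). The call of GLK1 was lost in 5 of 8 fits without a library (smn2 0 h 918, smn2 4 h 910, smn2 4 h 918, WT 0 h 918 or WT 4 h 910; adjusted p up to 0.0787). Of 18 genes of electron transport and ATP synthase, 8 were lower and none higher, with a median log2 change of -0.54. These included plastocyanin PETE1 (-1.53 ± 0.20) and the cyclic electron flow genes PGRL1A (-1.30 ± 0.19), PGRL1B (-1.13 ± 0.19) and PGR5 (-1.22 ± 0.21). Values in brackets are log2 changes with their standard errors.

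Genes for the assembly of the complexes were also compared. Of 16 genes of antenna insertion and photosystem assembly, 2 were lower and 1 higher at 4 h, with a median of -0.15. Of all loci tested, 16.4% passed as lower and 18.7% as higher. CPSRP43, which carries antenna proteins to the thylakoid, changed by -0.80 ± 0.22 (edgeR adjusted p = 0.0176), the photosystem II assembly factor PSB27 by -0.85 ± 0.23 (edgeR adjusted p = 0.0163) and PSB28 by 0.56 ± 0.20 (edgeR adjusted p = 0.0491). None of these 3 calls held in all 8 fits without a library: that of CPSRP43 was lost without smn2 4 h 910, smn2 4 h 918 or WT 4 h 910 (adjusted p up to 0.0635), that of PSB27 without smn2 4 h 918, WT 0 h 918 or WT 4 h 910 (up to 0.0644), and that of PSB28 in every fit but that without WT 4 h 910 (up to 0.175). Of 8 genes of proteins related to the antenna, LHCB7 (-1.30 ± 0.24) and OHP1 (-1.03 ± 0.30) were lower. The call of OHP1 was lost without smn2 0 h 910, smn2 4 h 918, WT 0 h 910 or WT 4 h 918 (adjusted p up to 0.0864). Subunits encoded in the plastid were not analysed here.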

How the data were processed

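Poly(A) RNA of whole seedlings was sequenced on an Ion Proton, with kits named in the labels' protocols. Per the file headers, the counts deposited by the authors are raw reads per locus and library, as total, uniquely placed, exon and intron reads. The submitters' processing notes name TAIR10. The sources used here give neither the aligner nor whether counting used strand, so reads of overlapping genes cannot be told apart. Exon lengths and positions were taken from the same deposited table. Samples were grouped by their titles.

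Total gene counts were tested with edgeR 4.0.16 (R 4.3.3) by quasi-likelihood, with TMM scaling and filterByExpr, in 1 fit of all 8 libraries, a coefficient for each of the 4 groups, 4 residual degrees of freedom (common biological coefficient of variation 22.9%). P-values were adjusted by Benjamini-Hochberg over 19649 loci. RPKM was computed from exon counts. The fit of the 4 groups was tested on simulated data, which had less spread than these data and no difference between runs. The fit of time by run was not tested so. Alternatives were DESeq2 1.42.0, its size factors, no filter, uniquely placed reads, exon reads, summed paralogs, a replicate block and each library left out. The run fit and its settings were added after seeing the data.

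The replicate numbers mark sequencing runs per the file headers and were taken to pair libraries. Deviations from group means of same-numbered libraries correlated at 0.49 between smn2 and WT at 0 h and at 0.15 between them at 4 h. For pairs of a 0 h group with a 4 h group the correlations were 0.064 to 0.14, so pairing across the times rests mainly on the numbers.

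Members and lists were chosen with earlier results of these data known. Values in every library are given for the 20 members of smallest adjusted p and the highest and lowest member per length of each family. Of other lists, at most 4 genes of smallest adjusted p are named, with exceptions stated. Sequences come from RefSeq (TAIR10.1), within whose genes all 42 members lie. They were not checked in the Landsberg erecta plants sequenced.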

Additional observations from a re-analysis of the deposited data

Results flagged for a closer look

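For 16 of the 42 genes the 4 h change differed between sequencing run 918 and run 910, by a test of the difference itself (edgeR, Benjamini-Hochberg adjustment over all loci). The fit was chosen after seeing the data, and the genotypes served as the replicates within a run and a time. Run and biological replicate cannot be told apart. Each value that follows is the log2 change within 918 minus that within 910, so a negative value is a larger fall in 918. The LHCB2 genes of the main trimeric antenna had -3.63 (LHCB2.1, adjusted p = 0.000532), -3.56 (LHCB2.3, 0.000393) and -3.00 (LHCB2.2, 0.00396). The LHCB1 genes of the same antenna had -3.18 (LHCB1.4, 0.0269), -3.15 (LHCB1.1, 0.00162), -2.24 (LHCB1.5, 0.0142), -1.70 (LHCB1.2, 0.0493) and -1.52 (LHCB1.3, 0.0435). Other antenna genes of photosystem II had -1.93 (LHCB3, 0.0346), -1.49 (LHCB5, 0.0346) and -1.47 (LHCB6, 0.0251). Antenna genes of photosystem I had -2.19 (LHCA4, 0.00352), -1.76 (LHCA1, 0.0251) and -1.25 (LHCA2, 0.0484). Core subunit genes of photosystem I had -1.64 (PSAO, 0.0435) and -1.39 (PSAD2, 0.0278). With 1 library left out, LHCA4, LHCB1.1, LHCB2.1, LHCB2.2 and LHCB2.3 passed in all 8 fits, and LHCA2, LHCB1.3, LHCB5, LHCB6 and PSAD2 in none of them.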

How the results depend on the processing

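The log2 changes of the 42 members over both genotypes, of the 11 called in smn2 and of the 4 called in WT did not change sign in the settings run; within a single run, LHCB4.3 in 918 (0.20) and PSAE2 in 910 (0.22) had values above 0. The count of lower members over both genotypes (36) was 39 with the replicate block, 35 with DESeq2, 41 with no filter on low counts and 27 with paralogs summed, 12 to 39 with 1 library left out and 10 without both 4 h libraries of run 918. In smn2 the count (11) was 28 with the replicate block, 24 with DESeq2, 36 with no filter and 1 to 21 with 1 library left out. In WT the count (4) was 10 with the replicate block, 16 with DESeq2, 34 with no filter, 2 with paralogs summed and 0 to 16 with 1 library left out. Within run 910 the count (21) was 4 to 22, and in the difference between the runs (16) it was 5 to 11, with 1 library left out. The cause of these shifts was not tested; fits with a library left out also rest on fewer samples, and a group of 1 is assumed to vary like the others. With paralogs summed, each set of paralogs stood as 1 entry, so those counts are out of fewer than 42 and are not a loss of calls by themselves. Counts of the genotype comparisons were 0 in every setting run. The recomputed log2 changes were tallied for the 42 members over both genotypes, the 11 called in smn2 and the 4 called in WT. Of these, 765 kept their side of the threshold, 17 came to pass, all over both genotypes, and 157 ceased to pass. Members not called in smn2 or in WT were left out of this tally for that genotype, so it does not hold those that came to pass there. With 2 replicates per group, p-values rest on the spread pooled over the groups, and members at low counts, such as LHCB4.3, are limited by depth.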
